A study of Mus musculus with 12 samples.

Results

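The genes described are 40 members of the peroxisomal oxidation and peroxisome assembly machinery in mouse liver, named by symbol and not by their values. Of them, 27 encode matrix enzymes and membrane transporters and 13 encode peroxins, out of 18193 genes with a probe set of a single symbol on the array. Each gene is represented by its brightest such probe set, and 39 of the 40 passed the filter on low signal, as did 13598 genes in all. Eci3, an enoyl-CoA isomerase, did not pass, since its group means lay between 3.67 and 3.99 on the log2 scale and the filter level was 4.87 to 4.92. The livers came from 12 male mice aged 6 to 12 weeks, 3 in each of 4 groups, collected at Zeitgeber time 14 under a light-dark cycle. Wild-type mice of the Jcl:ICR strain received normal diet, and a second wild-type group received bezafibrate in the diet at 0.5% by weight over 5 days. The same bezafibrate diet was given to PPARα-null mice, which carry PPARalphatm1Gonz from a line named 129S4SvJae and were bred to Jcl:ICR, and to Clk/Clk mutant mice on Jcl:ICR. Bezafibrate is a lipid-lowering fibrate that activates PPARα, and the Clk allele of Clock encodes a CLOCK protein with impaired transcriptional activity. All groups other than the untreated wild type received the drug, so a mutant's baseline and its response to the drug cannot be told apart. The null and wild-type mice also differ in strain origin.

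Peroxisomes are single-membrane organelles that shorten very long-chain, branched and dicarboxylic fatty acids by beta-oxidation. They also take a carbon off phytanic acid by alpha-oxidation, begin ether lipid synthesis and break down hydrogen peroxide. Their matrix enzymes are made in the cytosol and are imported by peroxins, the PEX proteins, which also insert membrane proteins and divide the organelle. In rodent liver, fibrates acting through the nuclear receptor PPARα are known for enlarging the peroxisome population.

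Values are log2 expression values, a difference of 1 being 2-fold, and groups are compared within a probe set only. A gene was called when its adjusted p was under 0.05 and its difference at least 1.5-fold. Adjusted p-values come from limma's moderated test with Benjamini-Hochberg adjustment over 13598 genes. The test sets a difference against the spread between mice within groups, pooled over the 4 groups of 3 and moderated over all tested genes. Values in the file reached 15.003, so differences of genes read above about 14 may be understated. Signal from the Ppara probe set persisted in the null mice (9.88 ± 0.157, SD, n = 3) and Clock signal was higher in Clk/Clk mice (9.25 ± 0.162) than in treated wild type (8.17 ± 0.282). Nothing in the labels or tables places these probes relative to either mutation, so they check neither genotype. The mean level of the 7 tested hepatocyte markers was 14.1 to 14.2 in untreated wild type and 13.7 to 13.8 in treated wild type. Stellate markers (8.78 to 8.96 and 8.50 to 8.61) and sinusoidal endothelial markers (8.05 to 8.11 and 7.73 to 8.002) were also lower without overlap. The ranges of macrophage, cholangiocyte and blood cell markers overlapped between these groups. The mean level of 4 blood cell markers was 6.01 to 6.29 in Clk/Clk mice and 6.57 to 7.17 in treated wild type. That of 8 macrophage markers was 8.02 to 8.31 and 8.45 to 8.97. Stellate markers in Clk/Clk mice (8.43 to 8.45) also lay below treated wild type, and hepatocyte markers (13.87 to 13.90) lay above it. In null mice, hepatocyte markers (13.99 to 14.04) and sinusoidal endothelial markers (8.04 to 8.11) lay above treated wild type without overlap. The ranges of the other marker lists overlapped between null and treated wild type. The part of these shifts in the results was not tested, and in whole liver fewer cells of a type and less RNA per cell cannot be told apart.

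With bezafibrate, most of the enzymes and transporters rose in wild-type liver, and a smaller share of the peroxins. Of the 39 tested genes, 20 were called higher and 3 lower, where 12.8% of all tested genes were called higher and 7.77% lower. Among the 26 enzymes and transporters 15 rose and 2 fell, with a median difference of 0.87. Among the 13 peroxins 5 rose and 1 fell, with a median difference of 0.35. The median over all tested genes was 0.0065. The difference between these gene groups is a description and was not tested. The 3 genes that fell were Pecr, Hao1 and Pex26.

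Taken mouse by mouse, the median of the 26 enzymes and transporters, each gene set against its untreated mean, was 0.81, 0.77 and 0.85 in treated wild type. In the same mice the median of the 13 peroxins was 0.29, 0.29 and 0.39. In treated null mice the enzyme median was -0.063, -0.011 and -0.042 and the peroxin median 0.0093, 0.037 and -0.0012. These medians lie near 0 in every null mouse, but that of the enzymes and transporters spans genes called in both directions against untreated wild type, 4 higher and 5 lower, with differences from -2.70 to 1.72. In treated Clk/Clk mice the enzyme median was 0.90, 0.79 and 0.78, and the peroxin median 0.34, 0.34 and 0.45.

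**Figure D1:**
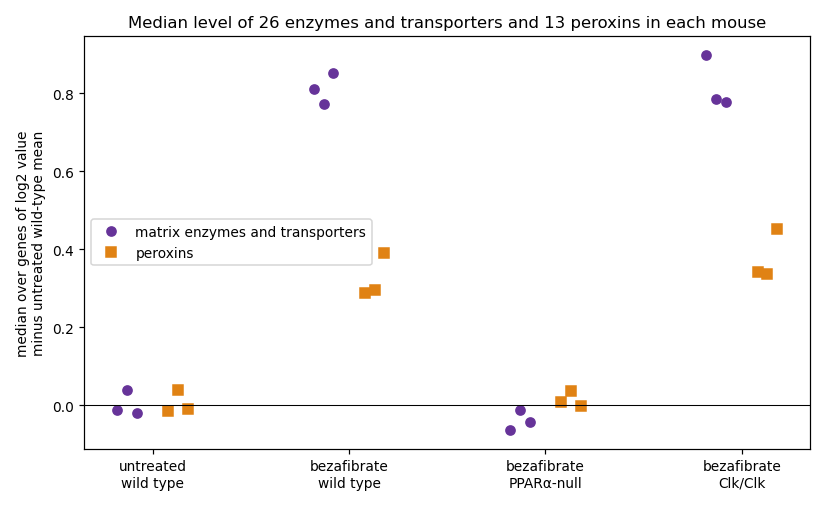
Median over genes of the log2 difference from the mean of untreated wild type (y axis) in each mouse, for 26 enzymes and transporters (circles) and 13 peroxins (squares), with 3 mice in each of the 4 groups on the x axis. Enzymes sit between 0.77 and 0.90 in treated wild-type and Clk/Clk mice, peroxins between 0.29 and 0.45, and both lie between -0.063 and 0.037 in null mice.

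With the drug in all mice, 18 of the 39 genes were called lower and 2 higher in PPARα-null than in wild-type liver, where 8.09% of all tested genes were called lower and 5.35% higher. The lower calls were 14 enzymes and transporters and 4 peroxins, and the median difference was -0.63 for the former and -0.28 for the latter, against 0.010 over all genes. Between treated Clk/Clk and wild-type mice, 1 of the 39 was called higher, Pecr, and 1 lower, Slc25a17, where 2.64% of all tested genes were called higher and 6.49% lower. The median difference was 0.052 for enzymes and transporters and 0.068 for peroxins, against 0.020 over all genes. No peroxin was called by limma in that comparison, and 2 of 13 had an unadjusted p under 0.05. The share of all tested genes under that p was not counted. The comparisons share the treated wild-type mice, so they are not independent of each other.

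**Figure D2:**
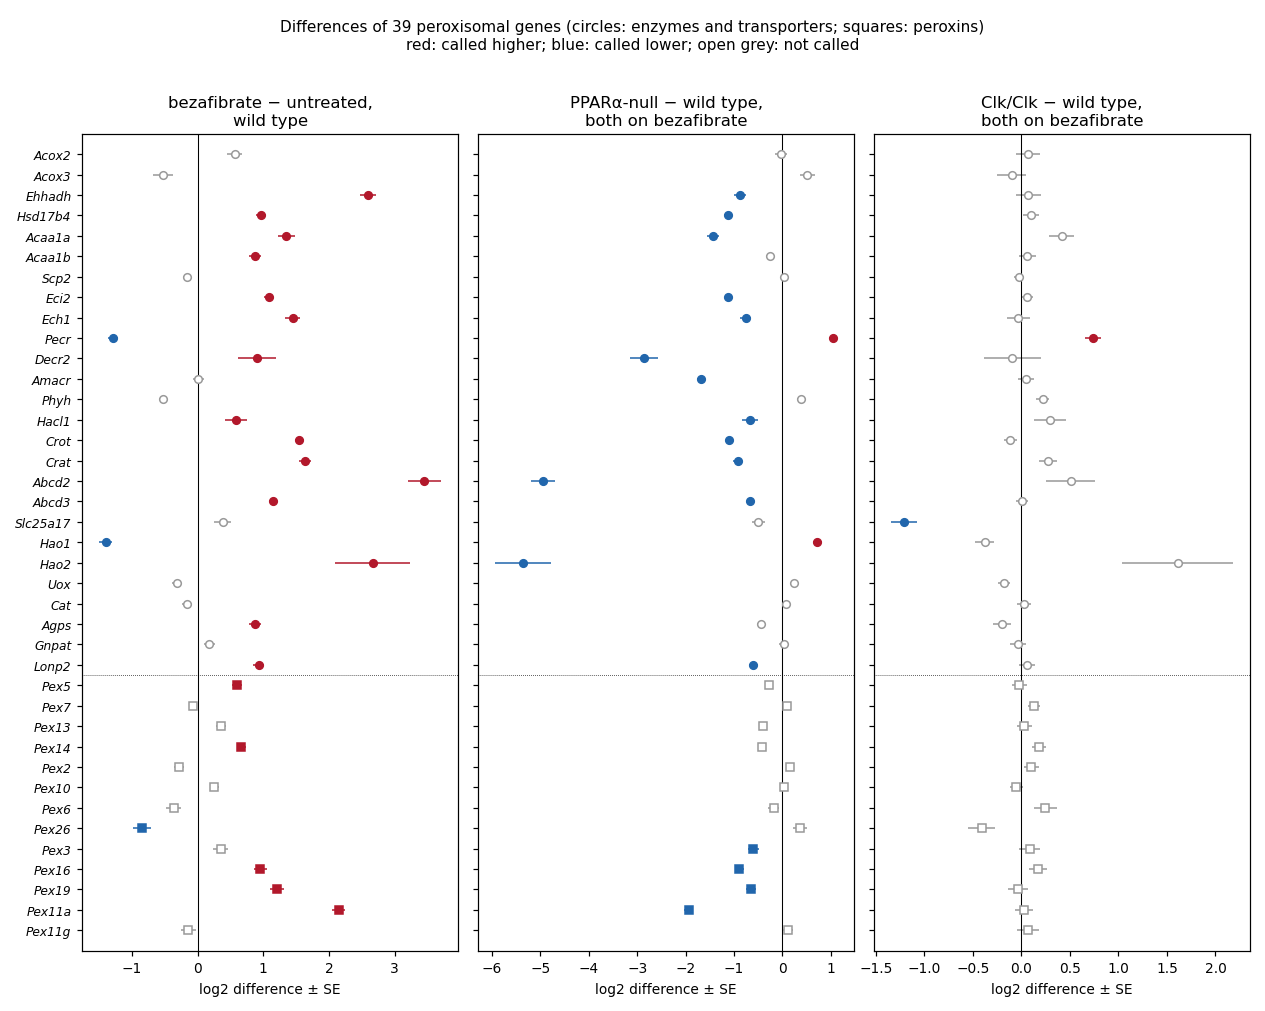
Log2 difference ± SE (x axis) of the 39 tested genes (y axis) in the 3 comparisons that use treated wild type, 3 mice per group. Red marks genes called higher, blue genes called lower and open grey genes not called. Enzymes and transporters (circles) reach 3.45 with bezafibrate, and peroxins (squares) run from -0.85 to 2.15.

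In core beta-oxidation, an oxidase, a bifunctional hydratase-dehydrogenase and a thiolase act in turn, and each step has several enzymes. The bifunctional enzymes and thiolases rose with bezafibrate, whereas neither tested oxidase passed the fold threshold. Ehhadh, the L-bifunctional enzyme, read 11.45, 11.94 and 12.04 in untreated and 14.40, 14.40 and 14.42 in treated wild-type mice. Treated null mice gave 13.42, 13.52 and 13.65, and treated Clk/Clk mice 14.47, 14.49 and 14.47. The 4 groups did not overlap, and the null mice lay between the untreated and treated wild types. The rise was 2.60 (SE 0.127, adjusted p = 5.54e-08), or 6.05-fold, and the null group differed from treated wild type by -0.88 (SE 0.127, adjusted p = 0.000310). The difference of Clk/Clk from wild type was 0.071 (95% interval -0.21 to 0.35, adjusted p = 0.723). Hsd17b4, the D-bifunctional enzyme that also takes branched chains and bile acid precursors, rose by 0.96 (SE 0.0785, adjusted p = 2.26e-06) from 11.73 to 11.79 to 12.69 to 12.76. In null mice it was back at 11.48 to 11.75, 1.12 lower than in treated wild type. The groups with a functional PPARα and drug did not overlap with the other groups for this gene.

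The thiolases Acaa1a and Acaa1b, which cleave off acetyl-CoA, both rose but differed in null mice. Acaa1a read 9.47, 9.61 and 9.21 in untreated wild type, 10.87, 10.80 and 10.65 in treated wild type and 9.37, 9.10 and 9.58 in null mice. The null mice overlapped the untreated wild type and lay below every treated wild-type mouse. Its rise was 1.35 (SE 0.129, adjusted p = 7.64e-06) and its difference in the null -1.43 (SE 0.129, adjusted p = 9.57e-06). Acaa1a in Clk/Clk mice (11.10, 11.23 and 11.24) lay above treated wild type in each mouse, by 0.42 (95% interval 0.13 to 0.70, adjusted p = 0.0364), under the 1.5-fold threshold. Acaa1b rose by 0.87 (SE 0.0864, adjusted p = 9.65e-06), from 13.63 to 14.01 to 14.68 to 14.69, and read 14.38 to 14.47 in null mice. That is 0.25 below treated wild type, which was not called, and 0.62 (SE 0.0864, adjusted p = 0.000656) above untreated wild type, which was. The last call was lost without untreated mouse 1 (0.53, adjusted p = 0.00180). The paralogues lie 4 protein-coding genes apart on chromosome 9, and both Acaa1a probe sets carry a suffix for probes shared with other transcripts, so signal may pass between them. Scp2, whose longer product is the thiolase for branched chains and whose shorter product carries sterols, read 14.18, 14.18 and 14.19 untreated and 14.01, 14.02 and 14.01 treated. Its values lay within a narrow band near the top of the scale, with a difference of -0.17 (SE 0.0530, adjusted p = 0.0212) and no call.

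The start-proximal sequences of Acaa1a and Acaa1b are shown because the copies rose together with the drug but stood apart in null mice. They are 250 bases before each gene's start, from RefSeq on GRCm38.p6, read on the gene's strand from 5′ to 3′. Capitals would mark AGGTCA, the half-site bound by nuclear receptors, and neither sequence holds it. Of the aligned bases, 118 of 193 (61.1%) were identical.
Acaa1a promoter (chr9:119341044-119341293, plus strand): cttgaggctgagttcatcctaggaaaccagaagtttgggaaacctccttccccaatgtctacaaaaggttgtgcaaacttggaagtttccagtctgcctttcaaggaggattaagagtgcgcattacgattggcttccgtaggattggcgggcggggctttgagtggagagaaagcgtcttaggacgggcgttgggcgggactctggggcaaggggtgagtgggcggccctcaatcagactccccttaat
Acaa1b promoter (chr9:119157094-119157343, minus strand): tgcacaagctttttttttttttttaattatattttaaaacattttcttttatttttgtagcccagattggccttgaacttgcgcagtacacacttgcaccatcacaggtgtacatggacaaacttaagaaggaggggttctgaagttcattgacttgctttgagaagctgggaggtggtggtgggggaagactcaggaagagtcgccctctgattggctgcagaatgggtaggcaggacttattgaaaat

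The acyl-CoA oxidases gave smaller shifts. Acox2, the oxidase for bile acid precursors, was at 0.56 with the drug (adjusted p = 0.00235), just under 1.5-fold, and at -0.027 in null against treated wild type. It passed without untreated mouse 2 (0.59) or treated mouse 2 (0.71). Acox3, an oxidase for branched chains, was at -0.53 (adjusted p = 0.0137) and passed as lower without untreated mouse 1 (-0.61), untreated mouse 3 (-0.60) or treated mouse 2 (-0.59). In the null it was at 0.51, and it was called higher there without null mouse 3 (0.61).

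Auxiliary enzymes handle double bonds and stereochemistry that the core cycle cannot, and they differed among themselves in direction. Ech1, a dienoyl-CoA isomerase of peroxisomes and mitochondria, read 11.86, 12.27 and 12.27 untreated, 13.56, 13.47 and 13.70 treated and 12.68, 12.96 and 12.82 in null mice. The null values lay between the wild-type groups without overlap. The rise was 1.45 (SE 0.115, adjusted p = 1.84e-06), and the null was -0.76 (SE 0.115, adjusted p = 0.000421) from treated wild type. Eci2, an enoyl-CoA isomerase, rose by 1.08 (SE 0.0665, adjusted p = 2.68e-07) and was 1.13 lower in null mice, whose range of 11.55 to 11.73 overlapped the untreated range of 11.63 to 11.72.

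Decr2, the peroxisomal dienoyl-CoA reductase, read 10.52, 10.67 and 10.07 untreated and 10.47, 11.92 and 11.59 in treated wild type. Treated mouse 1 fell within the untreated range while the other two lay above it. The difference of 0.91 (SE 0.289, adjusted p = 0.0221) was called, but not without untreated mouse 3 (0.73), treated mouse 2 (0.61) or treated mouse 3 (0.77), nor in a fit of these groups alone (adjusted p = 0.0838). Null mice read 8.47, 8.38 and 8.54, below every wild-type mouse with or without the drug. They were -2.86 (SE 0.289, adjusted p = 2.23e-05) from treated and -1.96 (SE 0.289, adjusted p = 0.000929) from untreated wild type. Clk/Clk mice (11.30, 11.23 and 11.17) lay within the treated wild-type range.

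Amacr, the racemase that lets branched chains and bile acid precursors enter beta-oxidation, did not respond in the same way. Untreated wild type read 11.61, 11.86 and 11.74 and treated wild type 11.66, 11.77 and 11.81, a difference of 0.012 (95% interval -0.18 to 0.20, adjusted p = 0.921). Null mice read 10.21, 9.97 and 10.03, well under both. The null difference was -1.68 (SE 0.0860, adjusted p = 1.84e-07) against treated and -1.67 (SE 0.0860, adjusted p = 5.80e-07) against untreated wild type. Amacr lies on chromosome 15, as Ppara does, with 332 tested genes between.

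Pecr, a reductase of trans-2-enoyl-CoA in the direction of chain elongation, was, like Hao1, an enzyme that fell with the drug. It read 12.18, 12.19 and 12.09 untreated and 10.84, 10.72 and 11.03 in treated wild type. Null mice read 11.95, 11.85 and 11.93 and Clk/Clk mice 11.69, 11.55 and 11.57. The 4 groups did not overlap, with treated wild type lowest, then Clk/Clk, null and untreated. Pecr fell by 1.29 (SE 0.0827, adjusted p = 3.66e-07) with the drug and was higher by 1.05 (SE 0.0827, adjusted p = 3.82e-06) in null and by 0.74 (SE 0.0827, adjusted p = 0.000184) in Clk/Clk mice than in treated wild type. A second Pecr probe set gave -1.30, 1.06 and 0.78 for these differences, each called. Treated Clk/Clk mice were -0.55 (SE 0.0827, adjusted p = 0.000219) from untreated wild type, under the fold threshold, and called lower without Clk/Clk mouse 1 (-0.59).

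Alpha-oxidation takes a carbon off phytanic acid so that beta-oxidation can follow, and its enzymes parted. Hacl1, the 2-hydroxyacyl-CoA lyase, read 12.73, 12.25 and 12.46 untreated and 13.05, 12.91 and 13.23 treated. The groups did not overlap and the call of 0.59 (SE 0.168, adjusted p = 0.0130) sat at the 1.5-fold threshold. It was lost without untreated mouse 2 (0.47), untreated mouse 3 (0.58) or treated mouse 3 (0.50). In null mice (12.13, 12.80 and 12.29) it was -0.66 (SE 0.168, adjusted p = 0.0104) from treated wild type, and this call was lost without treated mouse 3 (-0.58) or null mouse 1 (-0.52). Phyh, the phytanoyl-CoA hydroxylase that acts first, read 13.61, 13.69 and 13.75 untreated and 13.10, 13.14 and 13.23 treated. All treated mice lay below all untreated mice, by -0.53 (SE 0.0664, adjusted p = 5.97e-05), which is under 1.5-fold. In null mice it was 0.38 above treated wild type (adjusted p = 0.00117), again under that threshold.

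Carnitine acyltransferases pass shortened chains on to mitochondria, and both rose. Crot, the octanoyltransferase, read 11.77, 11.84 and 11.83 untreated, 13.38, 13.34 and 13.37 treated and 12.15, 12.28 and 12.36 in null mice. The null mice lay above every untreated and below every treated wild-type mouse. Its rise was 1.55 (SE 0.0661, adjusted p = 2.45e-08), its null difference -1.10 (SE 0.0661, adjusted p = 5.17e-07), and the Clk/Clk mice (13.23, 13.30 and 13.22) gave -0.11 (95% interval -0.26 to 0.031, adjusted p = 0.231). Crat, the acetyltransferase found in several compartments, read 8.23, 8.13 and 8.37 untreated, 9.94, 9.88 and 9.80 treated, 8.79, 9.06 and 9.004 in null and 10.24, 10.18 and 10.03 in Clk/Clk mice. No groups overlapped, with null between the wild types and Clk/Clk highest. The rise was 1.63 (SE 0.0931, adjusted p = 1.58e-07) and the null difference -0.93 (SE 0.0931, adjusted p = 2.18e-05), while the Clk/Clk difference was 0.27 (95% interval 0.070 to 0.48, adjusted p = 0.0518) and was not called.

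**Figure D3:**
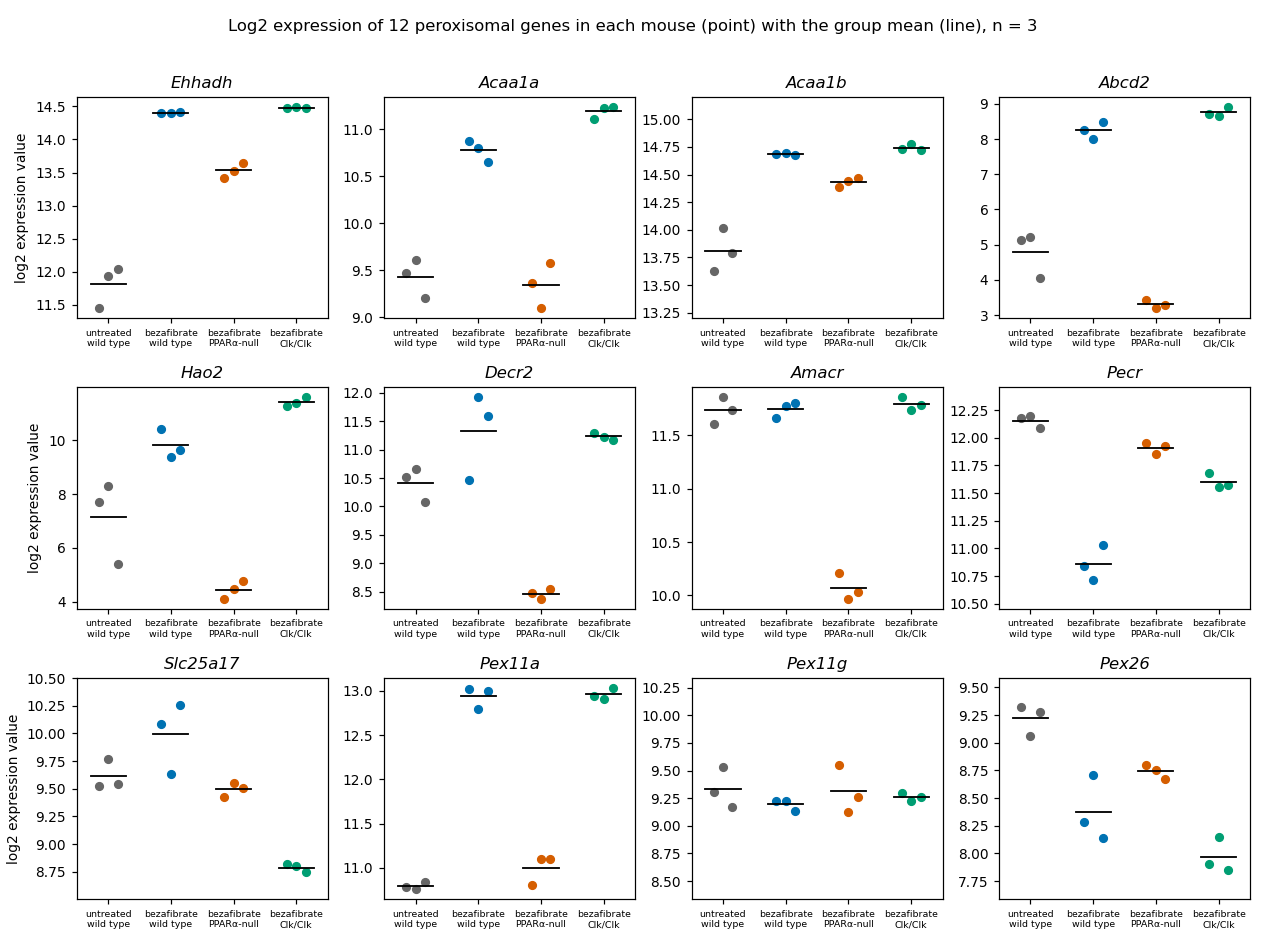
Log2 expression value (y axis) of 12 genes in each of the 12 mice (points), with group means (lines), by group on the x axis. The y axes are scaled per gene and do not start at 0. Pex11a reads 12.79 to 13.03 in treated wild type and 10.80 to 11.10 in null mice, while Amacr and Decr2 are lowest in null mice and Slc25a17 in Clk/Clk mice.

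The half-transporters Abcd2 and Abcd3 bring long-chain acyl-CoAs into the organelle. Abcd2 gave the largest rise of the 39 genes, reading 5.14, 5.22 and 4.04 in untreated and 8.27, 8.001 and 8.49 in treated wild-type mice. Null mice read 3.43, 3.20 and 3.29 and Clk/Clk mice 8.71, 8.66 and 8.91. The null mice all lay below the filter level and below each untreated mouse, of which mouse 3 was also below that level. The rise was 3.45 (SE 0.253, adjusted p = 1.02e-06) (10.96-fold) and the null difference -4.95 (SE 0.253, adjusted p = 1.84e-07), sizes that are uncertain because they start near background. The average of its 4 probe sets put the null difference at -2.87. Clk/Clk mice were 0.51 (95% interval -0.046 to 1.06, adjusted p = 0.166) from treated wild type, an interval that reaches past 2-fold. Abcd3, the more widely expressed of the transporters, rose by 1.15 (SE 0.0646, adjusted p = 1.49e-07) from 12.66 to 12.85 to 13.85 to 13.92. At 13.18 to 13.22 in null mice it lay between the wild-type groups, 0.68 below the treated one. Only 41 tested genes separate Abcd2 from Ppara on chromosome 15, and sequence from the 129S4SvJae parent may remain around Ppara in the null mice. The part of this in the Abcd2 values was not tested.

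Slc25a17, a carrier of cofactors such as CoA and FAD across the peroxisomal membrane, was the only gene of the 39 called lower in Clk/Clk mice. It read 9.53, 9.77 and 9.54 in untreated wild type, 10.09, 9.64 and 10.26 in treated wild type, 9.43, 9.55 and 9.50 in null and 8.82, 8.80 and 8.74 in Clk/Clk mice. Each Clk/Clk mouse lay below each other mouse. The difference from treated wild type was -1.21 (SE 0.133, adjusted p = 0.000167), from untreated wild type -0.83 (SE 0.133, adjusted p = 0.000356) and from null mice -0.71 (SE 0.133, adjusted p = 0.00145). With bezafibrate the wild-type groups overlapped, at 0.38 (95% interval 0.091 to 0.67, adjusted p = 0.0325), so no rise was called. The null difference of -0.50 was not called either, but was without treated mouse 2 (-0.68). It also lies on Ppara's chromosome, 63 tested genes away.

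The oxidases form hydrogen peroxide and catalase removes it. Hao2, an oxidase of long-chain 2-hydroxy acids, read 7.72, 8.30 and 5.41 untreated and 10.42, 9.38 and 9.62 in treated wild type. Null mice read 4.11, 4.48 and 4.75, below the filter level, and Clk/Clk mice 11.27, 11.40 and 11.59. The 4 groups did not overlap, and untreated mouse 3 stood apart from its group. The rise was 2.67 (SE 0.571, adjusted p = 0.00242), or 1.80 without that mouse, and the null difference -5.36 (SE 0.571, adjusted p = 3.37e-05). Clk/Clk mice were 1.61 (95% interval 0.36 to 2.86, adjusted p = 0.0601) above treated wild type and missed the p threshold. That difference passed when untreated mouse 2 (adjusted p = 0.0341) or untreated mouse 3 (adjusted p = 0.00232) was left out, since the groups share an estimate of the spread.

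Hao1, the liver's glycolate oxidase, ran the other way, reading 12.73, 12.68 and 12.86 untreated, 11.56, 11.23 and 11.27 treated, 11.998, 12.04 and 12.20 in null and 10.88, 11.003 and 11.05 in Clk/Clk mice. Every treated group lay below the untreated group, and the null mice lay above the treated wild type. Hao1 fell by 1.40 (SE 0.0987, adjusted p = 7.82e-07) and was 0.72 (SE 0.0987, adjusted p = 0.000205) higher in null than in treated wild type. Null mice stayed 0.68 (SE 0.0987, adjusted p = 0.000864) below untreated wild type, and Clk/Clk mice were -0.38 (SE 0.0987, adjusted p = 0.0172) from treated wild type, under 1.5-fold. Cat, or catalase, differed little, with 13.76, 13.77 and 13.74 untreated, 13.64, 13.56 and 13.58 treated and a difference of -0.16 (95% interval -0.32 to 0.0060, adjusted p = 0.102). Uox, the urate oxidase, read 14.01 to 14.09 untreated and 13.63 to 13.79 treated, a difference of -0.32 (SE 0.0629, adjusted p = 0.00135) that is under 1.5-fold. Both read in the upper part of the scale.

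Ether lipid synthesis starts with Gnpat and Agps in peroxisomes. Agps, the alkyl-DHAP synthase, read 6.95, 6.95 and 6.82 untreated and 7.99, 7.61 and 7.74 treated, without overlap, and rose by 0.87 (SE 0.0899, adjusted p = 1.35e-05). In null mice (7.29, 7.38 and 7.35) it was -0.44 (SE 0.0899, adjusted p = 0.00308) from treated wild type, under 1.5-fold. Gnpat, the acyltransferase, read 8.74, 8.50 and 8.82 untreated and 8.95, 8.76 and 8.89 treated, and the groups overlapped at 0.18 (95% interval -0.013 to 0.37, adjusted p = 0.113). Lonp2, a protease of the matrix, read 11.22, 11.22 and 11.23 untreated, 12.23, 12.07 and 12.15 treated and 11.505, 11.54 and 11.61 in null mice. The null lay between the wild types, and Lonp2 rose by 0.93 (SE 0.0853, adjusted p = 5.74e-06). Its null difference of -0.60 (SE 0.0853, adjusted p = 0.000269) was at the 1.5-fold threshold and lost without treated mouse 1 (-0.56) or null mouse 1 (-0.58).

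Lonp2 and Gnpat were the 2 of 34 genes with a promoter window that hold CACGTG, the E-box bound by CLOCK and BMAL1, against 8.09% of 27025 genes. The windows run from 250 bases before to 50 after the start, and the search took both strands. The stretches with the match are shown, with CACGTG in capitals, because CLOCK, whose gene is mutated in Clk/Clk mice, is among the proteins that bind this motif. Counted from the start, it begins at -80 in Lonp2 and at -224 in Gnpat. In Clk/Clk mice Lonp2 was 0.058 (95% interval -0.13 to 0.24, adjusted p = 0.663) and Gnpat -0.036 (95% interval -0.23 to 0.15, adjusted p = 0.794) from treated wild type. A match describes the letters only.
Lonp2 promoter (chr8:86651462-86651521, plus strand): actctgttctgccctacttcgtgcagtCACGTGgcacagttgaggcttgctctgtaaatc
Gnpat promoter (chr8:124862783-124862841, plus strand): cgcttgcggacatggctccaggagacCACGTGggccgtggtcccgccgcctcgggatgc

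Among the peroxins, Pex5 and Pex7 are the cytosolic receptors that carry matrix enzymes with C-terminal and N-terminal signals, and only Pex5 rose. Pex5 read 9.59, 9.71 and 9.72 untreated and 10.40, 10.19 and 10.23 treated. The groups were apart and the rise was 0.60 (SE 0.0798, adjusted p = 9.00e-05), at the 1.5-fold threshold and under it without untreated mouse 1 (0.56) or treated mouse 1 (0.54). Pex7 read 11.25, 11.32 and 11.27 untreated and 11.19, 11.16 and 11.28 treated, and its overlapping groups gave -0.074 (95% interval -0.20 to 0.056, adjusted p = 0.326). Neither receptor was called in null mice, at -0.28 and 0.086.

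Pex13 and Pex14 form the docking site at the membrane. Pex14 read 8.48, 8.45 and 8.61 untreated, 9.07, 9.26 and 9.21 treated and 8.74, 8.73 and 8.81 in null mice. The null values lay between the wild types, and Pex14 rose by 0.66 (SE 0.0722, adjusted p = 2.00e-05). Its null difference of -0.42 (SE 0.0722, adjusted p = 0.00106) was under 1.5-fold. Pex13 read 10.56, 10.70 and 10.62 untreated and 10.92, 10.92 and 11.09 treated, higher in every treated mouse by 0.35 (SE 0.0763, adjusted p = 0.00278) but under 1.5-fold, and -0.40 in null mice. Its dimmer probe set was called higher at 0.64.

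Pex2 and Pex10, RING-finger parts of the ubiquitin ligase that recycles the receptor, moved apart by small amounts. Pex2 read 10.06, 9.95 and 9.92 untreated and 9.69, 9.61 and 9.76 treated, a difference of -0.29 (SE 0.0796, adjusted p = 0.0110). Pex10 read 7.17, 7.04 and 7.0 untreated and 7.28, 7.39 and 7.30 treated, a difference of 0.25 (SE 0.0659, adjusted p = 0.00786). Neither reached 1.5-fold, and the groups did not overlap for either.

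Pex6, an ATPase that pulls the receptor out of the membrane, and Pex26, its membrane anchor, were the lower-reading pair with the drug. Pex26 read 9.33, 9.06 and 9.28 untreated, 8.28, 8.71 and 8.14 treated, 8.79, 8.75 and 8.68 in null and 7.90, 8.15 and 7.85 in Clk/Clk mice. All untreated mice lay above all others. Pex26 fell by 0.85 (SE 0.137, adjusted p = 0.000369), the one peroxin called lower. The null difference from treated wild type was 0.36 (95% interval 0.064 to 0.67, adjusted p = 0.0590) and that of Clk/Clk -0.41 (95% interval -0.71 to -0.11, adjusted p = 0.0487), neither called. Clk/Clk mice were -1.26 (SE 0.137, adjusted p = 1.96e-05) from untreated wild type. Pex6 read 9.89, 10.07 and 10.05 untreated and 9.71, 9.69 and 9.52 treated, a difference of -0.37 (SE 0.117, adjusted p = 0.0218) under 1.5-fold. The dimmest of its 5 probe sets was called lower at -0.68 and the other 4 were not called.

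Pex3, Pex16 and Pex19 place proteins in the peroxisomal membrane, and all 3 were called lower in null than in treated wild-type mice. Pex19, the chaperone of these proteins, read 9.44, 9.41 and 8.98 untreated, 10.50, 10.51 and 10.44 treated and 9.81, 9.84 and 9.86 in null mice. The null mice lay between the wild types, with a rise of 1.21 (SE 0.104, adjusted p = 3.44e-06) and a null difference of -0.65 (SE 0.104, adjusted p = 0.000595). Pex16, a membrane receptor, rose by 0.95 (SE 0.0941, adjusted p = 9.49e-06) from 9.58 to 9.80 to 10.58 to 10.82 and was 0.89 lower in the null. This rests on 1 probe set, since the dimmer one gave 0.094 and 0.13 and no call. Pex3, the docking factor for Pex19, read 9.16, 9.10 and 8.75 untreated, 9.43, 9.24 and 9.40 treated and 8.70, 8.88 and 8.69 in null mice. Its shift with the drug was 0.35 (SE 0.111, adjusted p = 0.0219), under 1.5-fold, whereas its second probe set was called higher at 0.69. The null difference of -0.60 (SE 0.111, adjusted p = 0.00167) sat at the threshold and was not called without treated mouse 1 (-0.56) or 3 (-0.58), or null mouse 1 (-0.57) or 3 (-0.56).

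Pex11 proteins elongate the membrane before division, and the members measured here differed. Pex11a read 10.78, 10.76 and 10.84 untreated and 13.03, 12.79 and 12.99 in treated wild type. Null mice read 10.80, 11.10 and 11.10, and Clk/Clk mice 12.95, 12.91 and 13.03. The null mice overlapped the untreated wild type, and the Clk/Clk mice overlapped the treated wild type. Pex11a rose by 2.15 (SE 0.0940, adjusted p = 2.95e-08), or 4.43-fold, and was -1.94 (SE 0.0940, adjusted p = 1.25e-07) in the null. The Clk/Clk difference was 0.026 (95% interval -0.18 to 0.23, adjusted p = 0.868), and that of null mice from untreated wild type 0.21 (95% interval 0.0049 to 0.42, adjusted p = 0.136). Pex11g read 9.31, 9.53 and 9.17 untreated, 9.22, 9.22 and 9.13 treated and 9.55, 9.12 and 9.26 in null mice. Its groups overlapped, with a difference of -0.14 (95% interval -0.39 to 0.11, adjusted p = 0.322) with the drug.

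The start-proximal sequences of Pex11a and Pex11g are shown because one was called with the drug and the other was not. They are 250 bases before each start, as for the thiolases, with AGGTCA in capitals. Aligned, 120 of 205 bases (58.5%) were identical. The half-site occurs once in the Pex11g sequence, from position -173 of the start, and not in that of Pex11a.
Pex11a promoter (chr7:79743132-79743381, minus strand): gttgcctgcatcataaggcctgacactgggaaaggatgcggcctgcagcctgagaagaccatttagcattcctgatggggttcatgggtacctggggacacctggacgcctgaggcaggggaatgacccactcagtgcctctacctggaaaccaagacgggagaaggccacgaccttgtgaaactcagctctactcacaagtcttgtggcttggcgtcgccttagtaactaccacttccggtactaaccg
Pex11g promoter (chr8:3467649-3467898, minus strand): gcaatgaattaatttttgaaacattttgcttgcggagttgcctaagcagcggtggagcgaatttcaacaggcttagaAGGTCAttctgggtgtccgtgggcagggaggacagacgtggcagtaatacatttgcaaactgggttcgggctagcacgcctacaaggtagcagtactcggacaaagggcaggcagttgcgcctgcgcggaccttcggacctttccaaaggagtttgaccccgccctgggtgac

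Over the 34 genes with a window, AGGTCA on either strand was found in 4, Phyh, Cat, Scp2 and Pex11g, a share of 11.8% against 18.1% of all genes. None of these 4 was called with the drug. This motif was added after the values were seen. The direct repeat bound by PPARα with its partner RXR, spelled as AGGTCA, any base and AGGTCA again, was in none of the 34 and in 0.0481% of all genes. Its looser form, with AGGNCA for each copy and so including the strict one, was in none and in 0.451%. No match says only that these letters are not within the window. Crat, Pex19, Amacr, Hsd17b4, Abcd2 and Pex2 had no window and were not searched.

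Treated null mice and untreated wild type were also set side by side, the comparison nearest to asking what remained of the drug state without PPARα, though genotype and diet both differ. Of the 39 genes 4 were called higher, where 3.96% of all tested genes were, and 5 lower, where 2.69% were. Those higher were Ehhadh (1.72, SE 0.127), Crat (0.71), Ech1 (0.69) and Acaa1b (0.62). Ech1 was not called without untreated mouse 1 (0.55). Those lower were Hao2 (-2.70), Decr2 (-1.96), Amacr (-1.67), Abcd2 (-1.49) and Hao1 (-0.68). Hao2 was at -3.56 without untreated mouse 3. Abcd2 was not called on the average of its 4 probe sets (-0.56), and Crat was at 1.80 with probe sets that carry a letter suffix left out. No peroxin was called by limma, and the median peroxin difference was 0.012. An adjusted p under 0.05 was found for 6 of 13 and an unadjusted one for 8. The share of all tested genes under these p limits was not counted, so the peroxin counts are descriptive. The nearest to a call were Pex19 at 0.56 and Pex6 at -0.54, in opposite directions. Pex19 was called higher without untreated mouse 1 (0.64) or 2 (0.62), and Pex6 lower without untreated mouse 1 (-0.60) or null mouse 2 (-0.66). Acox2 (0.53), Abcd3 (0.47) and Crot (0.45) had adjusted p-values of 0.00932, 0.000623 and 0.000923 but lay under 1.5-fold. For Acox2 every null mouse read above every untreated mouse.

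**Figure D4:**
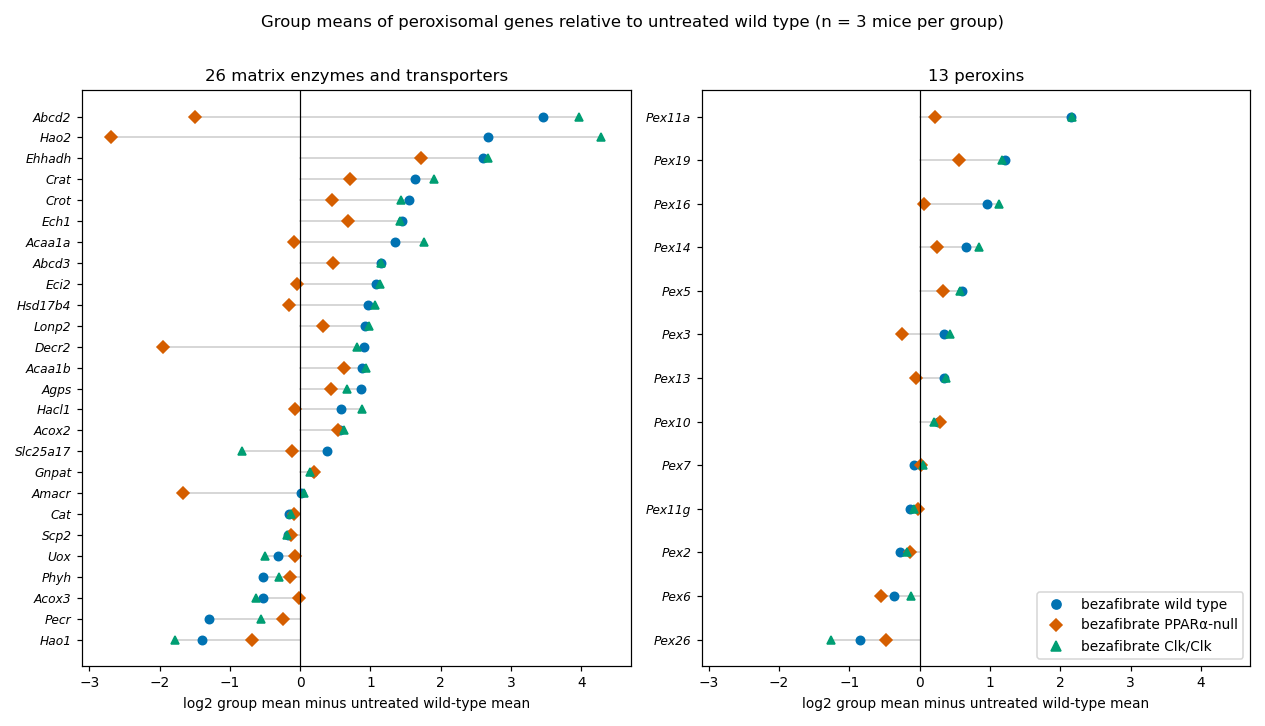
Group mean minus untreated wild-type mean, log2 (x axis), for 26 enzymes and transporters (left) and 13 peroxins (right), in treated wild type (circles), null (diamonds) and Clk/Clk (triangles), 3 mice per group. Null mice lie at 1.72 for Ehhadh and 0.21 for Pex11a, and at -2.70 for Hao2 and -1.96 for Decr2.

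Treated Clk/Clk mice against untreated wild type gave 20 genes called higher, where 10.6% of all tested genes were, and 4 lower, where 8.82% were. The largest were Hao2 (4.28), Abcd2 (3.96), Ehhadh (2.67) and Pex11a (2.17). Without untreated mouse 3, which read lowest of its group for Hao2 and Abcd2, Hao2 was at 3.41 and Abcd2 at 3.58, so the order of this pair rests on that mouse. The 4 lower were Hao1, Pex26, Slc25a17 and Acox3. Acox2 (0.63) was not called without Clk/Clk mouse 2 (0.57), and Acox3 (-0.63) not without untreated mouse 2 (-0.48) or Clk/Clk mouse 1 (-0.52). Decr2 (0.82) was called with all 12 mice but missed when untreated mouse 1 or 3, or any Clk/Clk mouse, was left out (0.64 to 0.86). Pex5 (0.58) was under 1.5-fold, and called without untreated mouse 2 (0.60) or 3 (0.60) or Clk/Clk mouse 3 (0.61). Averaged over their probe sets, Agps (0.19) and Acox3 (-0.27) were not called, and neither was Pex16 (0.17) on its dimmer probe set.

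Set against each other on the drug, the mutants differed in 23 genes, 19 called higher in Clk/Clk than in null mice, where 7.43% of all tested genes were, and 4 lower, where 7.78% were. The differences were 6.97 for Hao2, 5.46 for Abcd2, 2.77 for Decr2 and 1.96 for Pex11a. Those lower were Hao1 (-1.10), Pex26 (-0.78), Slc25a17 (-0.71) and Acox3 (-0.61). Acox3 was not called without null mouse 1 (-0.55) or Clk/Clk mouse 1 (-0.50), Lonp2 (0.66) not without Clk/Clk mouse 1 (0.58), and Pex14 (0.60) not without null mouse 2 (0.58) or Clk/Clk mouse 2 (0.58). On the average of their probe sets, Acox3 (-0.35), Abcd3 (0.54), Pex3 (0.55) and Pex16 (0.50) were not called.

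The array holds several passing probe sets for 21 of the genes, 55 in all, so the responses could be read more than once. With the drug, all probe sets were called higher for 7 genes and lower for 1, none was called for 4, and the calls were mixed for 9. For no gene were probe sets called in opposite directions. The probe sets of Pex11a gave 2.15 and 2.47, and those of Abcd2 gave 3.45, 2.73, 2.38 and 0.68. Crat spread widest upward, since a probe set other than the brightest gave 3.40 against 1.63. The 4 Scp2 probe sets gave -0.17, -0.36, -0.98 and -0.29, of which the third was called lower. The dim second probe sets of Crot and Agps gave -0.23 and -0.34 without a call, beside rises of 1.55 and 0.87. In null against treated wild type, 6 genes were lower and 1 higher on every probe set, and 5 were mixed. Between Clk/Clk and wild type the dim probe set of Abcd3 was called lower at -1.01, where the bright one gave 0.0078. When the probe sets of a gene were averaged, Agps (0.33), Lonp2 (0.38), Pex5 (0.51) and Pex16 (0.52) were no longer called higher with the drug. Likewise Crot (-0.58), Lonp2 (-0.34), Pex3 (-0.56) and Pex16 (-0.38) were no longer called lower in the null.

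**Figure D5:**
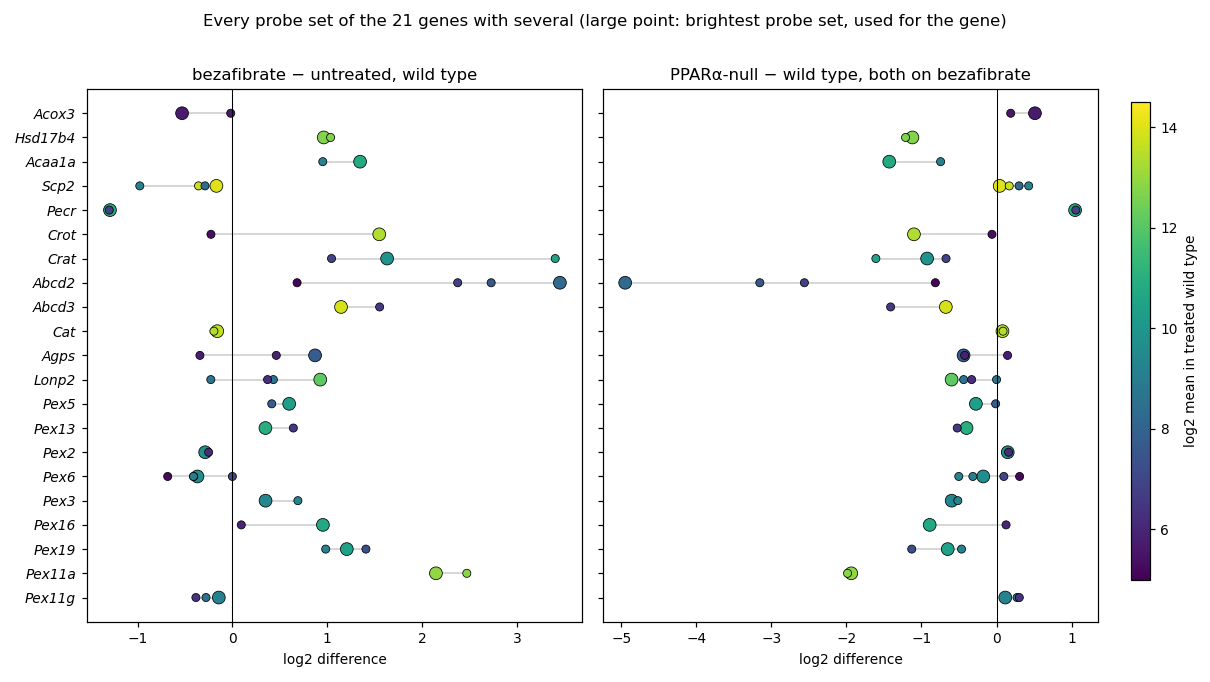
Log2 difference (x axis) given by each passing probe set of the 21 genes with several (y axis), for bezafibrate in wild type (left) and null against wild type on bezafibrate (right), 3 mice per group. The large point is the brightest probe set and colour gives the mean in treated wild type. Pex11a points lie at 2.15 and 2.47, and Abcd2 points run from 0.68 to 3.45.

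A list of 45 other peroxisomal genes, drawn up with earlier results known, gave 36 tested genes for reference. With bezafibrate 12 of the 36 (33.3%) rose and 5 (13.9%) fell, against 12.8% and 7.77% of all tested genes, with a median of 0.31. The acyl-CoA thioesterases Acot8 (2.09), Acot3 (3.36) and Acot4 (2.53), the dehydrogenase Hsdl2 (2.245) and the membrane protein Pxmp4 (1.04) rose. Acot3 belongs to a family of close copies, so its signal may be shared. Pipox, the pipecolic acid and sarcosine oxidase, fell by 2.04. In null against treated wild type 4 (11.1%) were higher and 12 (33.3%) lower, against 5.35% and 8.09% of all, with Acot8 at -2.26 and Pipox at 1.49. Ephx2, the soluble epoxide hydrolase, was -0.98 there. In Clk/Clk against wild type 3 were higher and 3 lower, 8.33% each, against 2.64% and 6.49% of all, so the share lower was near the background. Agxt, which disposes of the glyoxylate made by Hao1, was 1.67 (SE 0.201, adjusted p = 0.000284), Pipox 0.87 (SE 0.105, adjusted p = 0.000289), and Nudt7, a hydrolase of CoA, -0.77 (SE 0.0923, adjusted p = 0.000280). Agxt was called lower with bezafibrate in wild type (-2.33), and treated Clk/Clk mice were still called lower than untreated wild type for it (-0.67).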

How the data were processed

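Liver RNA of 12 mice was hybridised to Affymetrix arrays. The deposited table holds a log2 value for each probe set, made by the authors with RMA per the submitters' processing notes. The version and settings of RMA are not given in the sources used here. RMA corrects background, equalises arrays and summarises probes, which compresses differences near background and near the top of the scale. Array medians lay between 5.45 and 5.50, and arrays of a group correlated at 0.993 to 0.996 over probe sets. Arrays have no sequencing depth, and their number limits the precision.

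Probe sets with exactly 1 symbol in the platform's gene table were kept when 3 or more arrays read them at or above that array's 40th percentile. The brightest per gene entered lmFit and eBayes of limma 3.58.1 (R 4.3.3; 4 group means, 12 arrays, no covariate), and Benjamini-Hochberg adjustment ran over all genes tested. The same fit gave all 6 contrasts between groups. The pipeline was tested on simulated data. Promoter windows came from RefSeq and were aligned with Biopython 1.88.

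The members, gene lists and comparisons were chosen with earlier results of these data known. Values per mouse are given for the 6 largest called differences in each of the 3 main comparisons, for the largest and smallest change with bezafibrate within each role, and for genes called against the majority. From the 45 other peroxisomal genes, up to 6 per comparison with the smallest adjusted p are named. Protein sequences were not analysed here. Alternatives covered the filter, probe set choice, scaling, array weights, the fit, the thresholds, a replicate block and each array left out.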

Additional observations from a re-analysis of the deposited data

Results flagged for a closer look

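Probe sets that name both Acaa1a and Acaa1b entered no comparison, since their signal belongs to the paralogues jointly. In wild-type mice, the brighter of them (13.48 ± 0.239 untreated and 14.47 ± 0.0314 treated, SD, n = 3) was higher with bezafibrate by 0.990. The other (12.58 ± 0.356 and 14.21 ± 0.0408) was higher by 1.63. In null mice they were -0.29 and -0.45 from treated wild type, and neither was called. Among groups of 3 mice no test of a single outlying mouse was made.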

How the results depend on the processing

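With a 2-fold threshold in place of 1.5-fold, 11 genes were called higher with bezafibrate, and Pecr and Hao1 were called lower. It left 1 higher and 9 lower in null against treated wild type. In Clk/Clk against treated wild type 0 were higher, and Slc25a17 was lower. In null against untreated wild type 1 was higher, and Hao2, Decr2, Amacr and Abcd2 were lower. Clk/Clk mice had 13 higher and 2 lower against untreated wild type, and 10 higher and 1 lower against null mice. With the adjusted p alone, 34 of the 39 genes were called with bezafibrate, 9 of them lower. Against treated wild type, 29 were called in null, 5 of them higher, and 6 in Clk/Clk, 3 higher and 3 lower. Against untreated wild type, 20 were called in null, 13 of them higher, and 32 in Clk/Clk, 8 of them lower. The share of all tested genes called at these other thresholds was not counted. A fit of treated Clk/Clk and wild type alone called 2 genes higher, adding Hao2. Another alternative left out all probe sets whose names carry any letter suffix, and Pex16 was then represented by a dimmer probe set. On it Pex16 was at 0.127 in null against treated wild type and at -0.0499 in Clk/Clk against null, both reversed. All other called differences kept their sign.

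With each array left out in turn, genes called with bezafibrate ranged from 18 to 20 higher and 3 to 4 lower, and in the null from 2 to 3 higher and 15 to 19 lower. In Clk/Clk against treated wild type they ranged from 1 to 2 higher, with 1 lower throughout. Over all alternatives other than the thresholds, 17 of 23 calls with bezafibrate were kept, 15 of 20 in the null and 2 of 2 in Clk/Clk. Among genes not called, the sign changed in some alternative for 1 of 16, 3 of 19 and 16 of 37. The signs printed for uncalled differences in Clk/Clk therefore describe the values only.

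The labels do not say whether mice with the same number in different groups share anything, and the main fit did not pair them. Their residual correlations ran from -0.092 to 0.125, over 0.1 in 3 of 18 pairs. With the replicate block, the counts were 20 higher and 3 lower with bezafibrate, 2 and 18 in the null and 1 and 1 in Clk/Clk, the same as without it. Signal at or under the filter level limits Abcd2 and Hao2 in null mice, and signal near the top of the scale Ehhadh, Acaa1b, Scp2 and Uox.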
